A study of Homo sapiens with 4 samples.

Results

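The genes described here are 45 genes of mitosis: kinases, cyclins, kinesins, kinetochore proteins and their partners, taken by symbol from the deposited gene count table of RNA sequencing in NCI-H520 cells. All 45 were found among its 28277 genes, and all 45 were abundant enough to be tested for a difference between the groups. The line NCI-H520, labelled WT, is an established one from a lung squamous cell carcinoma. Its cells received either ultrapure water, in the 2 libraries of the group Vehicle, or Hx1R8 at 10 µM during 12 h, in the 2 libraries of the group Hx1R8. By its title, the series concerns self-association and condensates of SOX2 and drug resistance, and the labels do not describe the make-up of Hx1R8. The labels do not say whether the 2 libraries of a group came from separate cultures, so p-values measure the spread between these libraries only, which may be technical.

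Mitosis is driven by cyclin-dependent kinase CDK1 bound to A-type and B-type cyclins, together with the Aurora and Polo kinases. Kinetochores, built on centromeric chromatin, tie chromosomes to spindle microtubules, and the spindle checkpoint holds back the anaphase-promoting complex, a ubiquitin ligase, until every chromosome is attached. Transcripts of these genes are low in resting cells and peak late in the cell cycle, under the MuvB complex with B-MYB and FOXM1, which acts through a promoter element called CHR, and the factor NF-Y, which binds CCAAT boxes. In bulk RNA their level therefore follows the share of cycling cells as well as the RNA per cell, and fewer dividing cells and less RNA per dividing cell cannot be told apart here.

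Promoter sequence was available in the RefSeq table (build GRCh38.p14) for 39 of the 45 genes, and not for AURKA, TTK, UBE2C, BIRC5, TPX2 and FOXM1. Within the 250 bases before the start and the 50 bases after it, the CHR hexamer TTTGAA stood on either strand in 28 of the 39 promoters (71.8%). Over all genes it stood in 15.4% of 27305 promoters, taken as the first one listed for each gene. The CCAAT box, searched on both strands, stood in 28 of the 39 (71.8%), against 35.7% of all. At least 2 copies of CCAAT stood in 18 of the 39 (46.2%), against 11.3% of all, and both motifs together stood in 21 (53.8%), against 6.08%. The CHR variant TTCGAA, on either strand, was found in 2 promoters (5.13%, against 1.45% of all), those of BUB1 and NDC80. Upstream of the start, the median first base of TTTGAA lay 30 bases and that of CCAAT 77 bases before it, as positions of -30 and -77. A match of these letters is a description and not a measured binding site.

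To show how these elements sit, the stretch just before the start is printed, 5′ to 3′ on the gene's strand, for the 6 genes with the highest transcript level per length among those whose upstream sequence held both motifs. Capitals mark TTTGAA and CCAAT, or their reverse complements TTCAAA and ATTGG. Each stretch has 150 bases, except that of TOP2A, shown with 250 bases because both of its TTTGAA matches lay farther out.
CDC20, chr1:43358831-43358980, plus strand: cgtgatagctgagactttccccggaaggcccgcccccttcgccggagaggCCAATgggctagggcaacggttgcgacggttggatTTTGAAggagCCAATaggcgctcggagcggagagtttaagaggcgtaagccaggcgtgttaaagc
TOP2A, chr17:40417897-40418146, minus strand: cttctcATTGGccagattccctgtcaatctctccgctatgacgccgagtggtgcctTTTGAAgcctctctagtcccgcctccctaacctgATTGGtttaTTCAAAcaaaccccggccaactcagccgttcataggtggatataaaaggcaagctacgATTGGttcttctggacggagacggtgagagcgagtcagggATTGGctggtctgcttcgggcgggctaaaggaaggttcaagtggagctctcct
PLK1, chr16:23678739-23678888, plus strand: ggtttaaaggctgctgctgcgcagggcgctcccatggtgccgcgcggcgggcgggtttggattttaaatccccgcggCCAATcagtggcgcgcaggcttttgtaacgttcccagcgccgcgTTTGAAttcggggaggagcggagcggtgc
CCNB2, chr15:59104996-59105145, plus strand: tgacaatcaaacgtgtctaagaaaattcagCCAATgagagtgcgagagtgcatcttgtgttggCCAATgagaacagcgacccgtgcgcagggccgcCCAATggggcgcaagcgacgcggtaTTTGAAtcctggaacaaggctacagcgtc
CDCA8, chr1:37692366-37692515, plus strand: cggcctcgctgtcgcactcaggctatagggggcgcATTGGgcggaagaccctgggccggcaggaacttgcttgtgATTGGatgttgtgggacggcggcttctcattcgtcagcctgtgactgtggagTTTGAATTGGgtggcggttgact
PRC1, chr15:90994536-90994685, minus strand: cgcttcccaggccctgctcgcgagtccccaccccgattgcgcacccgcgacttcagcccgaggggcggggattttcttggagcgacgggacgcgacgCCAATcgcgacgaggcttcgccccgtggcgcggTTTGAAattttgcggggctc
In PLK1, CCNB2 and PRC1 a CCAAT box precedes a TTTGAA that begins at position -29, -29 and -20 from the start. In CDC20 a TTTGAA at -65 lies between CCAAT boxes at -100 and -55. In CDCA8 the hexamer, at -23, runs directly into a reversed CCAAT box at -18, with 1 base shared.

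Total counts ran from 17259403 to 20920857 per library. Levels of 1 gene across libraries are given in CPM, the count scaled by the library's total as adjusted by edgeR's TMM scaling factor. Of 12 squamous markers SOX2 was abundant, at 541 and 514 CPM in Vehicle and 522 and 497 CPM in Hx1R8, and TRIM29 lay between 27.6 and 31.3 CPM, KRT6A between 17.1 and 19.9, DSC3 between 6.05 and 7.60 and KRT15 between 3.25 and 4.39 CPM. Other markers of the lineage were absent or nearly so: KRT14 and DSG3 had 0 reads in all libraries, 5 of the 12 stayed below 1 CPM, TP63 among them, and KRT5 lay between 1.16 and 1.91 CPM. A count of 0 allows up to 3 counts, or 0.143 to 0.174 CPM, for counting error only. Of 12 immune markers 10 stayed below 1 CPM in all libraries and 5 of these had 0 reads, with a summed level of 4.05 and 3.99 CPM in Vehicle and 2.73 and 3.77 CPM in Hx1R8. Of 12 fibroblast and endothelial markers 9 did, 2 of them with 0 reads, at a summed level of 13.7 and 14.0 CPM in Vehicle and 12.9 and 13.2 CPM in Hx1R8. The 12 neuroendocrine markers summed to between 1141 and 1150.03 CPM, with CHGB highest. Most of that sum came from CHGB, between 524 and 531 CPM, and UCHL1, between 280 and 291 CPM. Of the 12, 3 stayed below 1 CPM in all libraries, CHGA among them. The part of other cell types in the members' values was not tested.

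The mitotic transcripts were abundant in these cells. Levels between genes are given as TPM, the count divided by the listed exon length and scaled so that every library has the same sum. The median of the 45 genes' mean TPM was 116, against 20.1 TPM over all 14482 tested genes, and 56.5% of tested genes lay below the lowest of the 45. The highest gene stood 31.4-fold above the lowest by mean TPM, but the lowest, SKA1, has a listed length that counts an alternate contig. With the exon bases of the chromosome alone as the length, an alternative added after the data were seen, the lowest gene was CENPE at 31.4 TPM, the fold was 25.7 and 60.3% of tested genes lay below it. CDC20, the activator of the anaphase-promoting complex, was first at 839 ± 31.3 TPM in Vehicle and 823 ± 19.0 TPM in Hx1R8 (SD, n = 2 each). TPX2, which activates AURKA and nucleates spindle microtubules, followed at 525 ± 1.43 and 531 ± 13.3 TPM (SD, n = 2 each). KIF2C, a kinesin that depolymerises microtubules at the kinetochore, came next at 412 ± 13.6 and 406 ± 13.3 TPM (SD, n = 2 each). These leading levels did not overlap over the 4 libraries: CDC20 lay above TPX2, TPX2 above KIF2C, and KIF2C above TOP2A. TOP2A, the DNA topoisomerase that untangles sister chromatids, stood at 354 ± 20.6 TPM in Vehicle (SD, n = 2), and its 4 values overlapped those of PTTG1. Of the 44 pairs of neighbours in this order by listed length, 19 had ranges that did not overlap and 25 could not be ordered beyond their spread. The places of KIFC1, SPC25 and SKA1 also depend on the length used. With the exon bases of the chromosome alone, KIFC1 went from rank 41 to 24, SPC25 from 43 to 36 and SKA1 from 45 to 39.

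**Figure D1:**
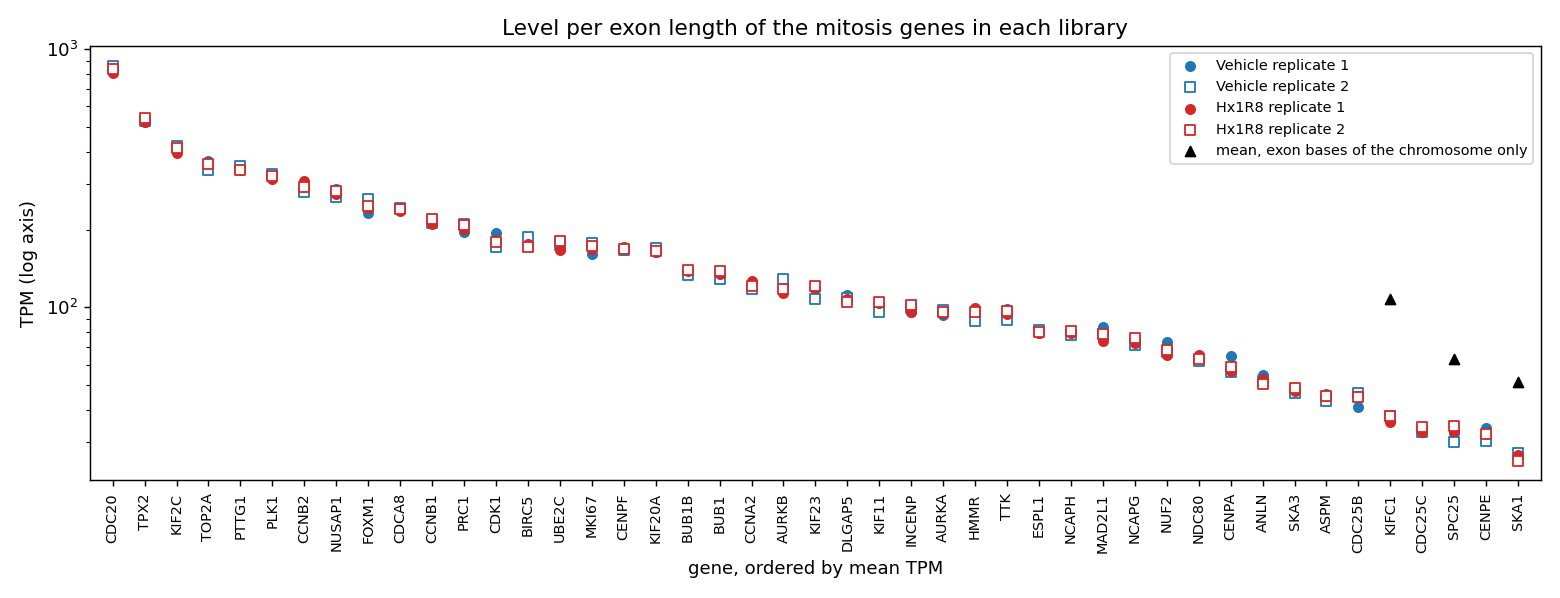
Level of each of the 45 genes in TPM (log axis) in every library, ordered by mean TPM; circles and squares are replicates 1 and 2, blue Vehicle and red Hx1R8. The order runs from CDC20 at a mean of 831 TPM to SKA1 at 26.4 TPM, and black triangles give the means of KIFC1, SPC25 and SKA1 when alternate contigs are left out of the exon length.

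Among the kinases, PLK1, which drives spindle assembly and mitotic exit, was highest at 324 ± 7.41 TPM in Vehicle, followed by CDK1 at 182 ± 15.7 TPM (SD, n = 2 each). The checkpoint kinases BUB1 and BUB1B, at 131 ± 3.62 and 135 ± 2.07 TPM in Vehicle (SD, n = 2 each), overlapped over the libraries. AURKB, the kinase of the chromosomal passenger complex, was at 124 ± 5.48 TPM, and AURKA, the centrosomal Aurora kinase, at 95.5 ± 3.37 TPM in Vehicle (SD, n = 2 each). TTK, which recruits checkpoint proteins to unattached kinetochores, was at 94.1 ± 6.27 TPM in Vehicle (SD, n = 2), with values that overlapped those of AURKA. Of the cyclins, CCNB2 was at 290 ± 15.7, CCNB1 at 214 ± 2.05 and CCNA2 at 121 ± 3.45 TPM in Vehicle (SD, n = 2 each). The phosphatases that activate CDK1 were scarcer, with CDC25B at 43.9 ± 3.97 and CDC25C at 33.5 ± 0.806 TPM in Vehicle (SD, n = 2 each).

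Subunits of the chromosomal passenger complex differed in level, whereas NUF2 and NDC80 of the NDC80 complex overlapped. In the chromosomal passenger complex, CDCA8 (borealin) was at 242 ± 0.946 TPM, BIRC5 (survivin) at 181 ± 8.99 TPM and the scaffold INCENP at 97.8 ± 2.28 TPM in Vehicle (SD, n = 2 each), with no overlap over the 4 libraries. In the NDC80 complex, the microtubule coupler of the kinetochore, NUF2 was at 70.2 ± 4.36 and NDC80 at 63.5 ± 2.09 TPM in Vehicle (SD, n = 2 each), and their values overlapped over the 4 libraries. Their partner SPC25 was listed at 31.4 ± 1.85 TPM in Vehicle (SD, n = 2), but its listed length counts an alternate contig as well. With the exon bases of the chromosome alone, its mean over all libraries was 63.4 TPM, beside 66.5 TPM for NUF2 and 62.1 TPM for NDC80 on that scale. The same holds for SKA1, of the outer kinetochore SKA complex, whose mean went from 26.4 to 51.3 TPM, beside 46.4 TPM for its partner SKA3 on the chromosome scale. For KIFC1, a minus-end-directed kinesin that clusters centrosomes, the mean went from 37.1 to 108 TPM. The condensin subunits NCAPH and NCAPG were at 78.7 ± 0.623 and 72.5 ± 1.85 TPM in Vehicle (SD, n = 2 each). NCAPG has 64.4% of its exon bases outside other listed genes, the rest lying opposite exons of LCORL on the other strand. The order of these subunits depends on the length used. By listed length the means over all libraries were 79.5 TPM for NCAPH and 73.5 TPM for NCAPG. With the same counts over unshared exon bases they were 74.1 and 106 TPM.

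Securin, encoded by PTTG1, and separase, encoded by ESPL1, form the pair that guards sister chromatid cohesion, and their Vehicle levels were 349 ± 4.78 and 80.7 ± 1.69 TPM (SD, n = 2 each). UBE2C, the ubiquitin-conjugating enzyme of the anaphase-promoting complex, was at 172 ± 1.82 TPM and MAD2L1, the checkpoint protein that binds CDC20, at 81.5 ± 3.49 TPM in Vehicle (SD, n = 2 each). CENPF, a large protein of the outer kinetochore, was at 167 ± 0.322 TPM, CENPA, the centromeric histone H3 variant, at 60.5 ± 6.09 TPM, and CENPE, a kinetochore motor, at 32.3 ± 2.50 TPM in Vehicle (SD, n = 2 each). MKI67, the proliferation marker that coats mitotic chromosomes, was at 169 ± 10.9 TPM and the transcription factor FOXM1 at 247 ± 21.3 TPM in Vehicle (SD, n = 2 each). Among the spindle and cytokinesis genes below TPX2, NUSAP1 was at 276 ± 14.4, PRC1 at 203 ± 9.73 and DLGAP5 at 110 ± 1.93 TPM in Vehicle (SD, n = 2 each). HMMR was at 93.6 ± 7.57, the cytokinetic scaffold ANLN at 53.3 ± 2.11 and the spindle pole protein ASPM at 44.7 ± 1.95 TPM in Vehicle (SD, n = 2 each). Of the plus-end-directed kinesins, KIF20A, which acts in cytokinesis, was at 166 ± 3.62 TPM, KIF23 of the central spindle at 113 ± 7.27 TPM and KIF11, which pushes the spindle poles apart, at 98.6 ± 4.22 TPM in Vehicle (SD, n = 2 each).

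No change was detected in any of the 45 genes after Hx1R8. EdgeR's quasi-likelihood test with Benjamini-Hochberg adjustment over all 14482 genes called 0 of the 45 at the 0.05 threshold, each with an adjusted p of 0.9999. DESeq2 also called 0, and 0 of the 45 were under 0.05 before adjustment in either test. Over all genes the test called 2 higher (TXNDC5 and RNA28SN5) and 1 lower (IFI27), which is 0.0138% and 0.00691% of those tested, or 0.0207% in either direction, so a count of 0 among 45 is near the background. The call of IFI27 ended without Hx1R8 replicate 2 (log2 -0.31, edgeR adjusted p = 0.337) and that of RNA28SN5 with DESeq2 (log2 1.51), and RNA28SN5 went from 1.52 to 0.92 without Vehicle replicate 1 and to 2.56 without Vehicle replicate 2. At an unadjusted p under 0.05 the share of all genes was 3.39%. The log2 fold changes of the 45 ran from -0.11 to 0.10, with 22 above 0, 23 below 0 and a median of -0.0006, against a median of -0.0018 over all tested genes. Their median absolute log2 fold change was 0.026, against 0.053 over all genes. It was 0.032 over 70 further mitosis genes outside the 45 and 0.023 over 40 DNA replication and G1/S genes.

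The data bounded these differences closely. The 95% intervals of all 45 lay within 1.2-fold of no change, which holds for 57.6% of all tested genes. This was not particular to the 45. It held for 94.3% of 70 further mitosis genes and 97.5% of 40 DNA replication and G1/S genes, and for 55.0% of 20 cell cycle inhibitors and quiescence genes. Interval width follows the standard error, whose median was 0.051 over the 45 and 0.081 over all tested genes. Within 1.5-fold lay 81.4% of all tested genes. The lowest interval bound was 0.849-fold, for AURKB, and the highest 1.196-fold, for SPC25. That the adjusted p missed the threshold does not by itself show that the groups were alike. Standard errors of the log2 fold changes ran from 0.045 to 0.079, on counts from 452 reads (CENPA in Vehicle replicate 2) to 14773 reads (MKI67 in Hx1R8 replicate 2). The intervals rest on 2 residual degrees of freedom with 36.9 added from the spread of all genes, and they cover the spread of these 4 libraries alone.

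**Figure D2:**
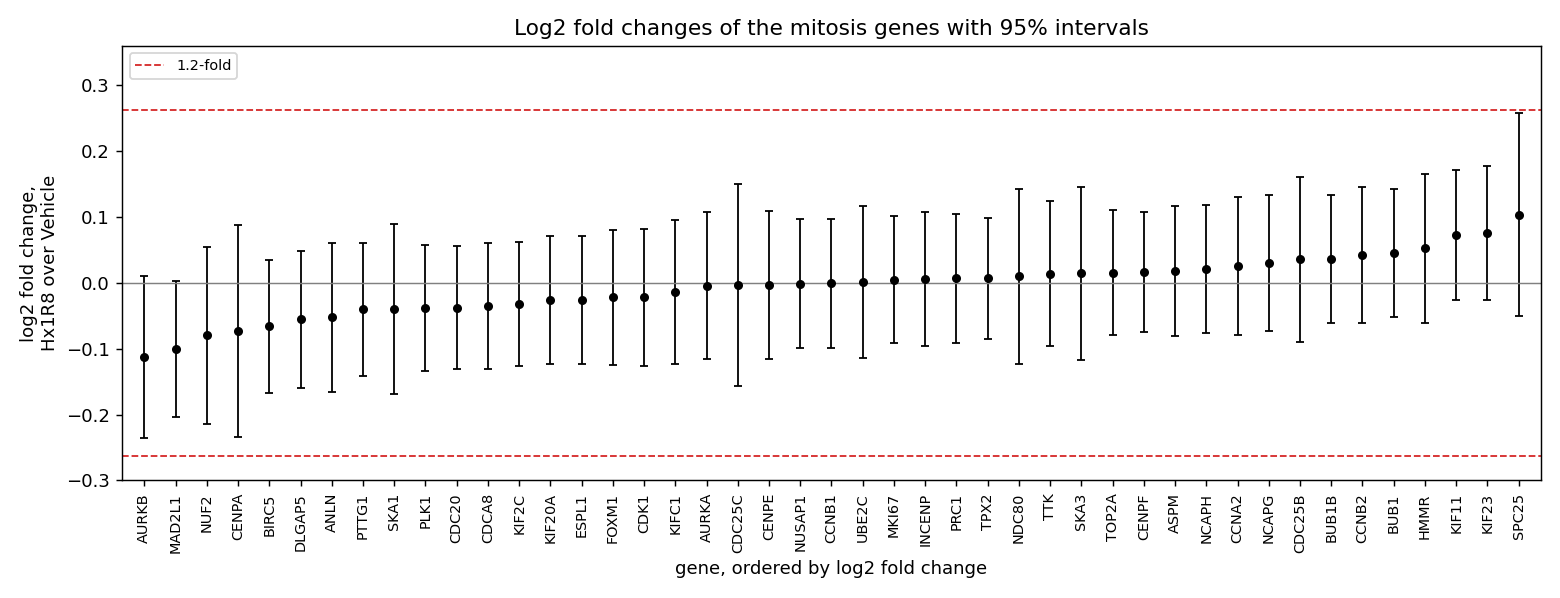
Log2 fold change (Hx1R8 over Vehicle) of each of the 45 genes as points, with 95% intervals as bars, ordered from AURKB at -0.11 to SPC25 at 0.10. Every interval lies between the dashed lines, which mark 1.2-fold in either direction.

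The members with the lowest values were AURKB and MAD2L1, and in both the Hx1R8 libraries lay below the Vehicle libraries. AURKB (chr17:8204731-8210575, minus strand, hg38) stood at 57.4 and 61.4 CPM in Vehicle replicates 1 and 2 and at 54.1 and 55.7 CPM in Hx1R8 replicates 1 and 2. Its log2 fold change was -0.11 (SE 0.06, unadjusted p = 0.0714), and the 2 groups were 1.7 CPM apart at their nearest values. MAD2L1 (chr4:120055623-120066848, minus strand) stood at 142 and 135 CPM in Vehicle and at 125 and 133 CPM in Hx1R8, a log2 fold change of -0.10 (SE 0.05, unadjusted p = 0.0552). At their nearest values the MAD2L1 groups were 1.9 CPM apart, less than the distance between the 2 Hx1R8 libraries. For AURKB that gap was likewise smaller than the distance between the 2 Vehicle libraries. The highest value was that of SPC25 (chr2:168870891-168890430, minus strand), at 28.5 and 26.3 CPM in Vehicle and 29.0 and 29.8 CPM in Hx1R8 (log2 0.10, SE 0.08, unadjusted p = 0.181). The kinesins KIF11 and KIF23 also had both Hx1R8 libraries above both Vehicle libraries. KIF11 stood at 165 and 156 CPM in Vehicle and 169.6 and 168.7 CPM in Hx1R8 (log2 0.07, SE 0.05). KIF23 stood at 148 and 136 CPM in Vehicle and 149 and 149.6 CPM in Hx1R8 (log2 0.08, SE 0.05).

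Across the 45, both Hx1R8 libraries lay above both Vehicle libraries in 6 genes, where all genes gave 14.7%, and below them in 5, where all genes gave 15.2%. Those above were BUB1, BUB1B, SPC25, KIF11, KIF23 and NCAPH, and those below were AURKB, MAD2L1, PTTG1, CDCA8 and DLGAP5. In the other 34 genes the groups overlapped, and 29.8% of all genes did not overlap. Counted by role, 4 of 7 kinases had values below 0, as had 4 of 5 checkpoint and anaphase genes, 4 of 8 kinetochore genes, 2 of 3 passenger subunits, 3 of 5 kinesins, 3 of 7 spindle genes, 2 of 5 cyclin and CDC25 genes and 0 of 4 chromosome structure genes. Medians by role lay between -0.04 (checkpoint and anaphase genes) and 0.03 (cyclins and CDC25 genes). The master kinase CDK1 stood at 208 and 185 CPM in Vehicle and 197 and 190.3 CPM in Hx1R8, and its partner CCNB1 at 152 and 150.2 CPM in Vehicle and 148 and 153 CPM in Hx1R8. In both genes the Hx1R8 values lay inside or across the Vehicle range.

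**Figure D3:**
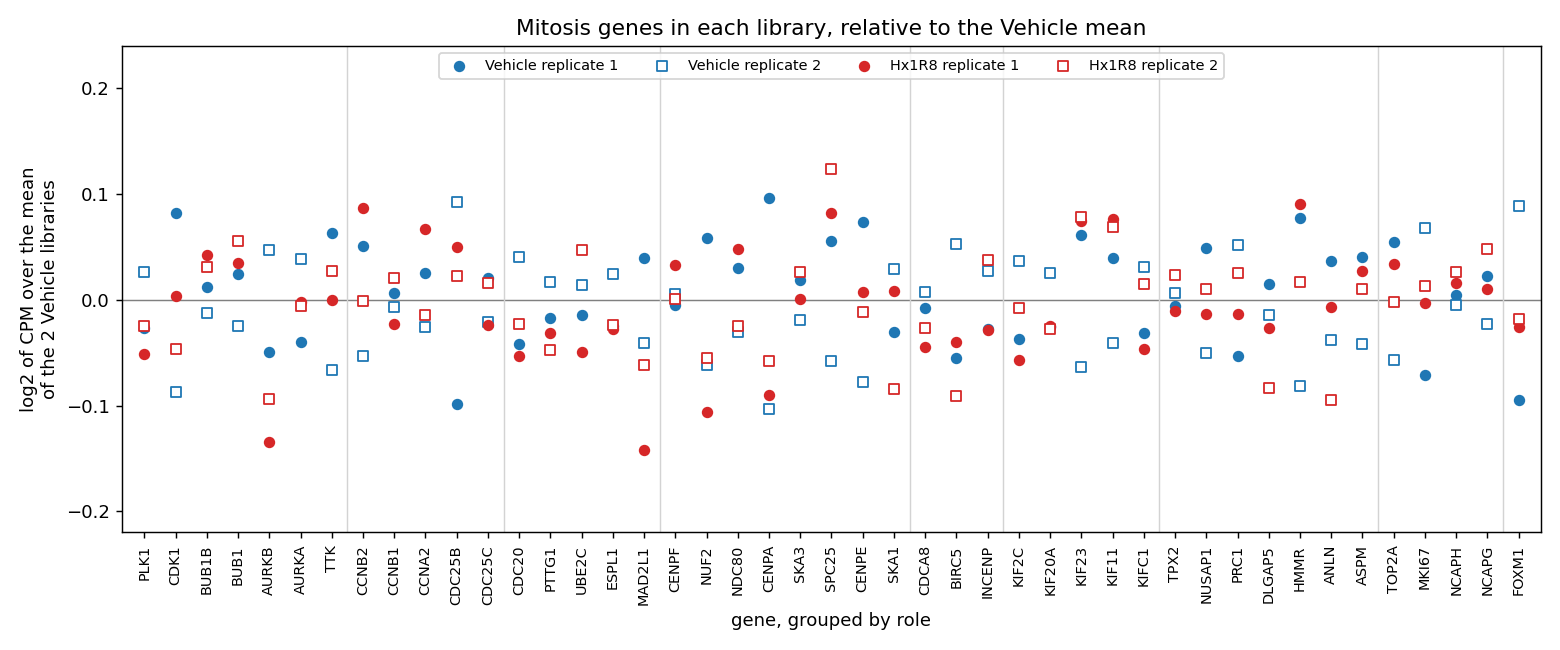
Each library's CPM over the mean of the 2 Vehicle libraries, as log2, for the 45 genes grouped by role; filled circles are replicate 1, open squares replicate 2, blue Vehicle and red Hx1R8. In most genes the 2 Vehicle replicates lie farther apart than the group means, as in FOXM1, CDK1 and CDC25B.

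The 2 Vehicle libraries differed from each other more than the group means did. The measures are unlike, because a mean of 2 libraries varies less than a single library, so part of this order is given by arithmetic. The median absolute log2 difference between Vehicle replicates 1 and 2 was 0.074 over the 45 genes, against 0.034 between the Hx1R8 replicates and 0.027 between the group means. Over all tested genes the same medians were 0.099, 0.071 and 0.053, in that order. In 37 of the 45 genes (82.2%) the difference between the group means was smaller than that between the 2 Vehicle libraries, as it was in 67.7% of all tested genes. Vehicle replicate 2 was the highest library in 16 of the 45 genes and the lowest in 19. It thus stood at either end in 35 (77.8%), against 59.5% of all tested genes. FOXM1 stood at 276 CPM in Vehicle replicate 1 and 313 CPM in replicate 2, with 289 and 290.4 CPM in Hx1R8 between them. MKI67 showed the same order, at 665 and 732 CPM in Vehicle and 697 and 705 CPM in Hx1R8. CDC25B stood at 58.2 and 66.4 CPM in Vehicle and 64.5 and 63.3 CPM in Hx1R8. In CDK1, TOP2A and CENPE, Vehicle replicate 2 was the lowest library and replicate 1 the highest. TOP2A stood at 680.1 and 629 CPM in Vehicle and 670.2 and 654 CPM in Hx1R8, and CENPE at 94.4 and 85.0 CPM in Vehicle and 90.2 and 89.0 CPM in Hx1R8. The sum over the 45 genes was nearly level all the same, at 8100.2 and 8140.1 CPM in Vehicle and 8095 and 8115 CPM in Hx1R8.

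Members with GC-rich transcripts mostly stood higher in Vehicle replicate 2 than in replicate 1. GC content was taken from each gene's longest GENCODE release 29 transcript and ran from 35.3% (CENPE) to 59.6% (INCENP) over the 45, with a median of 43.4%. Of the 23 genes at or under that median, 21 were lower in Vehicle replicate 2 than in replicate 1, and of the 22 above it, 18 were higher. Across the 45 genes the log2 ratio of Vehicle replicate 2 to replicate 1 went with GC content at Pearson r = 0.77 and Spearman rho = 0.79. All points rest on the same 2 libraries, and genes are not independent replicates. The same description over 70 other mitosis genes gave r = 0.66, and over 9481 genes of at least 10 CPM r = 0.45. For the 2 Hx1R8 libraries it was 0.36 over the 45, 0.092 over the 70 other mitosis genes and 0.029 over the 9481 genes. For the log2 fold change between the groups, which shares the Vehicle libraries, it was -0.29 over the 45, -0.25 over the 70 and -0.21 over the 9481. The part of GC content in the members' values was not tested.

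**Figure D4:**
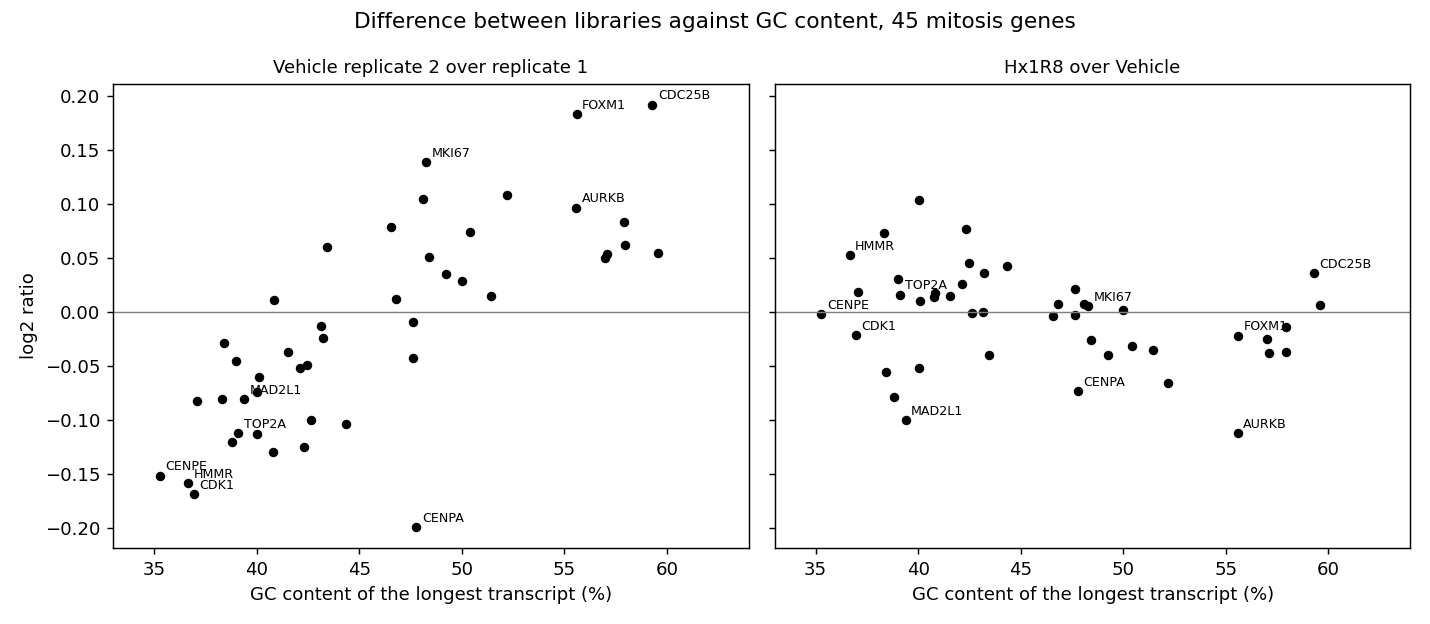
Log2 ratio against transcript GC content (%) for the 45 genes, each point 1 gene, with Vehicle replicate 2 over replicate 1 on the left and Hx1R8 over Vehicle on the right, both on the same vertical axis. On the left, CENPE, HMMR and CDK1 lie low at low GC and FOXM1 and CDC25B high at high GC, whereas CENPA lies lowest at 47.8% GC; the right panel spans -0.11 to 0.10.

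The sign of small differences turned with the Vehicle library that was kept. Without Vehicle replicate 1 the log2 fold change of FOXM1 was -0.11, and without Vehicle replicate 2 it was 0.07. For MKI67 the values were -0.06 and 0.08, for CDC25B -0.06 and 0.14, for CDK1 0.06 and -0.10 and for TOP2A 0.07 and -0.04. AURKB and MAD2L1 stayed below 0 in both settings, at -0.16 and -0.06 for AURKB and at -0.06 and -0.14 for MAD2L1. SPC25, KIF11 and KIF23 stayed above 0. In these genes the groups did not overlap, so leaving out a Vehicle library left little room for the sign to turn. Their kept sign is therefore no evidence of a difference. With either library left out 0 of the 45 genes were called. The smallest adjusted p of edgeR's test was then 0.15, for KIF23 without Vehicle replicate 1. At an unadjusted p under 0.05 there were 9 members without Vehicle replicate 1 and 4 without Vehicle replicate 2, beside 1687 of 14786 and 911 of 14882 genes.

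Of 70 further mitosis genes outside the 45, all tested, edgeR's test called 0 higher and 0 lower, with a median log2 fold change of 0.0075, 42 values above 0 and 28 below, and 5 (7.14%) at an unadjusted p under 0.05, against 3.39% of all tested genes. The lowest of these was PIMREG at -0.19 (SE 0.07), with 36.4 and 36.5 CPM in Vehicle and 32.5 and 31.6 CPM in Hx1R8. CENPI, of the inner kinetochore, was at 0.16 (SE 0.07), with 32.2 and 31.8 CPM in Vehicle and 35.4 and 35.9 CPM in Hx1R8. TROAP (-0.12, SE 0.05) and the condensin II subunit NCAPH2 (-0.13, SE 0.06) had both Hx1R8 libraries below Vehicle. SPDL1, which brings dynein to kinetochores, is named after its values were seen: it was called without Vehicle replicate 1 (log2 0.20, edgeR adjusted p = 0.010) and in no other setting run. Of 16 genes for the anaphase-promoting complex and its partners 0 were called, with ANAPC15 highest at 0.31 (SE 0.10), from 11.6 and 11.5 CPM in Vehicle to 14.6 and 14.1 CPM in Hx1R8 (unadjusted p = 0.00451).

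The factors that act on mitotic promoters and the genes of the preceding phase were likewise uncalled. Of 15 MuvB, B-MYB, DREAM and NF-Y genes 0 were called, 12 had values above 0 and the median was 0.02. MYBL2, which encodes B-MYB, stood at 293 and 318 CPM in Vehicle and 304 and 314 CPM in Hx1R8 (log2 0.02, SE 0.05). Of 40 DNA replication and G1/S genes 0 were called, with a median of -0.0055 and values from -0.12 (E2F2) to 0.12 (TYMS). Of 20 cell cycle inhibitors and quiescence genes 0 were called, 14 had values below 0 and the median was -0.03. CDKN1B, which encodes the CDK inhibitor p27, stood at 37.6 and 35.7 CPM in Vehicle and 35.2 and 34.0 CPM in Hx1R8 (log2 -0.08, SE 0.07).

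Counting could touch some members. Exons of 11 of the 45 genes overlap those of another listed gene, in 10 of them on the opposite strand, and the strand setting is not given. The pseudogenes AURKAP1 and UBE2CP5 held 39 to 49 and 82 to 108 reads, against 1369 to 1678 for AURKA and 1210 to 1574 for UBE2C, and reads of such near-identical copies could have been split between them.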

How the data were processed

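RNA was sequenced from NCI-H520 cells in 2 Vehicle and 2 Hx1R8 libraries; per the labels' protocols the RNA was taken with TRIzol and the libraries came from an ABclonal kit. The submitters' processing notes name the aligner STAR, version 2.7.9, and the build hg38. The counting tool, the annotation and any strand setting were not given in the sources used here. Deposited by the authors were raw whole-number counts per gene, 1 column per library, and another column, the deposited exon length in bases, in which alternate contigs are counted too. A gene's row broken over 2 lines, with 0 reads, was left out.

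The rest was computed from these counts. EdgeR 4.0.16 (R 4.3.3) ran its quasi-likelihood test on all genes kept by filterByExpr, with TMM factors, the group as the only term and Benjamini-Hochberg adjustment at 0.05, and 95% intervals come from the same fit. CPM is per library total multiplied by the TMM factor, and TPM uses the deposited lengths. For levels of single members the total is that of the tested genes. For sums and for genes of other lists it is that of all genes. GC content came from GENCODE release 29 transcripts and promoter windows from RefSeq, on the strand of the gene, taking the window nearest to the listed 5′ end. Intervals and floors cover counting error and the spread of these libraries only.

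The 45 genes, their roles and the other gene lists were chosen with earlier results of these data known. All 45 are named; from each other list up to 4 genes with the smallest unadjusted p and the 2 most abundant could be named, with the squamous markers and every gene called over all genes. SPDL1 and the pseudogenes were added after their values were seen. The printed promoters are the 6 with the highest TPM that hold both motifs upstream. Other normalizations, filters, DESeq2 1.42.0, a replicate block and leaving out each library were tried, as were 2 other lengths, that with chromosome exon bases chosen after the data were seen. On simulated data with the same library sizes (14327 genes), the edgeR test called 46.9% of genes changed by 1.2-fold, 72.9% at 1.5-fold, 94% at 2-fold and 6 of 14130 unchanged genes.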

Additional observations from a re-analysis of the deposited data

How the results depend on the processing

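The count of 0 called members held under every alternative tried: library totals alone or median-ratio factors for scaling, no filter or one of 1 CPM in 2 libraries, DESeq2, the replicate block and leaving out each library. The median log2 fold change of the members stayed between -0.0074 and 0.0037. With each library left out in turn, the lone sample of a group was assumed to vary like the other group, and 2 to 41 genes were called higher and 1 to 38 lower over all genes. The highest counts came without Vehicle replicate 1, where 41 rose and 38 fell, followed by 13 and 18 without Vehicle replicate 2, then 2 and 5 without Hx1R8 replicate 1 and 5 and 1 without Hx1R8 replicate 2. DESeq2 called 1 gene higher in place of 2, without RNA28SN5, and IFI27 was not called without Hx1R8 replicate 2. The median over the members, taken in each library and averaged over the 4 libraries, was 108 TPM with unshared exon bases as the length, in place of 115 TPM.

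Replicate numbers are shared by the groups, but the labels tie them to nothing else, and deviations of same-numbered libraries correlated at 0.03. With the replicate block 0 members were called and the members' median was -2.0e-05; UBE2C turned to -2.0e-05 and CENPE to 0.00038.

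Of 450 recomputed log2 fold changes 54, in 28 members, had another sign than in the main test; 0 were called and the cause was not tested. With median-ratio factors CCNB1 was at 0.00070 and NUSAP1 at 0.00010, and with library totals CCNB1 was at 0.00056. With no filter CCNB1 was at 0.0037, NUSAP1 at 0.0031, AURKA at 0.00031, CDC25C at 0.0017 and CENPE at 0.0018. With DESeq2 CCNB1 was at 0.0014, NUSAP1 at 0.00097 and CENPE at 8.4e-06. Over the settings that leave out 1 library, kinases and cyclins that turned were AURKA (-0.043 to 0.038), CDK1 (-0.10 to 0.065), TTK (-0.047 to 0.081), CCNA2 (-0.013 to 0.067), CCNB1 (-0.024 to 0.022), CCNB2 (-0.0078 to 0.094), CDC25B (-0.057 to 0.14) and CDC25C (-0.024 to 0.019). Checkpoint, passenger and kinetochore genes were CDC20 (-0.078 to 0.0062), ESPL1 (-0.050 to 0.0012), UBE2C (-0.049 to 0.048), INCENP (-0.029 to 0.039), CENPA (-0.17 to 0.030), CENPE (-0.074 to 0.075), NDC80 (-0.023 to 0.048), SKA1 (-0.083 to 0.0082) and SKA3 (-0.0020 to 0.034). Kinesins and spindle genes were KIF20A (-0.051 to 0.0016), KIF2C (-0.068 to 0.0077), KIFC1 (-0.046 to 0.020), ASPM (-0.020 to 0.060), HMMR (-0.024 to 0.13), NUSAP1 (-0.048 to 0.050), PRC1 (-0.044 to 0.062) and TPX2 (-0.011 to 0.025). The others were TOP2A (-0.038 to 0.073), MKI67 (-0.063 to 0.078) and FOXM1 (-0.11 to 0.074).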
